A study of Mus musculus with 4 samples.

Results

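The interleukin 1 (IL-1) family and its decoys were followed as 9 named genes out of 54532 in the deposited table, taken by symbol, each found once. They are the ligand genes Il1a, Il1b, Il18 and Il33, the antagonist and decoy genes Il1rn, Il18bp and Il1r2, and the receptor genes Il1r1 and Il1rap. RNA came from bone marrow-derived macrophages of C57BL/6 mice aged 6 to 8 weeks, grown for 6 days in medium that L929 cells had conditioned, which supplies macrophage colony-stimulating factor. The titles name 4 groups of 1 library each: WT and KO untreated, and both again after 3 h of lipopolysaccharide (LPS), a bacterial ligand of TLR4. WT was read here as FBXW7f/f and KO as LysM-cre FBXW7f/f, the genotypes that the tags name. All 4 thus carry Fbxw7 alleles flanked by loxP sites, and the cre driver, inserted in the lysozyme gene Lyz2, acts in myeloid cells at large. The sources used here do not say how many mice stand behind a library or how much LPS was given.

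Library totals ran from 17610372 to 23835940 counts. Levels are given as CPM, counts relative to library size scaled by the TMM method, and as the authors' FPKM, a level per length, where genes are compared with each other. The genotype tags follow treatment, with FBXW7f/f for the untreated pair and LysM-cre FBXW7f/f for the LPS pair, and so go against the titles, which were used. Lyz1, a neighbour of Lyz2, had 2.86 (WT) and 32.9 CPM (KO) untreated and 33.1 (WT) and 2.63 CPM (KO) after LPS, so it paired the untreated KO title with the LPS WT title. Fbxw7 itself, at 17.9, 17.2, 9.90 and 11.7 CPM in the same order, did not separate the titles, although a gene-level count cannot show a deleted exon. Every genotype direction below is therefore one between titled libraries, and that order of the libraries is kept throughout. All 8 macrophage markers were detected in each library. Summed levels of 6 fibroblast markers were 1.27 to 3.18 CPM and of 8 neutrophil markers 3.18 to 10.8 CPM. The 6 mast cell markers summed to 0.272, 2.75, 4.13 and 3.55 CPM, lowest in the untreated library titled WT. Of these, Kit had 0, 36, 47 and 46 counts, Cpa3 3, 34, 20 and 12, and Fcer1a 3, 6, 4 and 0. Mcpt4, Tpsb2 and Cma1 were at 0 counts throughout. The part of this difference in the results was not tested. In bulk RNA, fewer cells of a type and less RNA per cell cannot be told apart.

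IL-1α and IL-1β bind the same receptor, IL-1R1, which recruits the accessory protein IL-1RAP and signals through MyD88 to NF-κB. The antagonist encoded by Il1rn occupies IL-1R1 without recruiting the accessory chain, and IL-1R2 binds the ligand but lacks a signalling domain. IL-18 is held in check by the soluble IL-18 binding protein, and IL-33 is a nuclear protein released from damaged cells that acts on the receptor ST2, encoded by Il1rl1. Macrophages transcribe the Il1b gene strongly after TLR4 engagement, and pro-IL-1β and pro-IL-18 need cleavage, usually by caspase-1, before they are active.

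Il1a and Il1b lie next to each other on chromosome 2, 54597 bases apart and both on the minus strand, and Il1r2 and Il1r1 lie 99848 bases apart on the plus strand of chromosome 1 (GRCm38). The sequences just upstream of the start are shown for the 4 genes with the largest LPS effects and, for contrast, for Il1rap, the gene of the 9 whose LPS effect was smallest. Each is the 250 bases before an annotated RefSeq start (GRCm38.p6), 5′ to 3′ on the gene's strand. They are chr2:129309973-129310222 (minus) for Il1a, chr2:129371140-129371389 (minus) for Il1b, chr2:24336610-24336859 (plus) for the upstream start of Il1rn, chr19:29924863-29925112 and chr19:29945540-29945789 (plus) for both starts of Il33, and chr16:26581455-26581704 (plus) for Il1rap. Capitals mark matches to the motifs named after the sequences.
Il1a: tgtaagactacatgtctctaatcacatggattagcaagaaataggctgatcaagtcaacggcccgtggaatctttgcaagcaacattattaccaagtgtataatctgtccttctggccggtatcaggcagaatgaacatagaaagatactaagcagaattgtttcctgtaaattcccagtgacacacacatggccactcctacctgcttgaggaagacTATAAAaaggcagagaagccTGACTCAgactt
Il1b: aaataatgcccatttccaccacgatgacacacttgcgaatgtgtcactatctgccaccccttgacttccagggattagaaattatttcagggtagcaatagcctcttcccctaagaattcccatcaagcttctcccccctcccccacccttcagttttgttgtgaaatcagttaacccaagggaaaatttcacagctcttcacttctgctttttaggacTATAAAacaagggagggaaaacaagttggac
Il1rn: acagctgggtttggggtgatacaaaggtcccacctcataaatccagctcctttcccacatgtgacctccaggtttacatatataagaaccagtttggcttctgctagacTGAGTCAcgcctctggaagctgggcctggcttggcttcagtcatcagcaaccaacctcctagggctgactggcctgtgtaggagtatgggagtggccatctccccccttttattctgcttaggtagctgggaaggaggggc
Il33 upstream: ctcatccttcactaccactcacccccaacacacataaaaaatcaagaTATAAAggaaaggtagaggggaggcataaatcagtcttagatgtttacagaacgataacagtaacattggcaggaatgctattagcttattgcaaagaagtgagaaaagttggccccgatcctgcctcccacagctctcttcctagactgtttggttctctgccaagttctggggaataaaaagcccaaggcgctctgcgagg
Il33 downstream: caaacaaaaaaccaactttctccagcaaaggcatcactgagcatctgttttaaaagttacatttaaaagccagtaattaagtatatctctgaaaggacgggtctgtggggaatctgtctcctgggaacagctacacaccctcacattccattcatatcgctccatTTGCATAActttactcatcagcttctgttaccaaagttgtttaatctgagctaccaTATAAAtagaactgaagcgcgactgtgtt
Il1rap: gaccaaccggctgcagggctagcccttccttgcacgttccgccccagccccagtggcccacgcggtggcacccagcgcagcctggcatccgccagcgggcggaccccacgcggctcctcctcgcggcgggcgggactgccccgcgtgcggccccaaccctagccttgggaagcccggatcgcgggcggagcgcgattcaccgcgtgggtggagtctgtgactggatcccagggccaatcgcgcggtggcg

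The motifs searched were TATAAA on the gene's strand and, on both strands, TGANTCA (AP-1), TTGCNNAA (C/EBP), TGACGTCA (CRE), the ISRE consensus (TTTC, 2 bases of any kind, TTTC) and the NF-κB consensus. No 2 of the matches overlapped. Il1a held TATAAA 32 to 27 bases before its start, Il1b 31 to 26 bases before, and the downstream start of Il33 29 to 24 bases before. The upstream Il33 window held it 203 to 198 bases before the start. Of 32807 such windows in the mouse table, 7.6% hold it anywhere. TGANTCA was found in Il1a, 12 to 6 bases before the start, and in the upstream Il1rn window, 141 to 135 bases before, against 6.75% of all windows. The other 2 Il1rn windows held none of the 6 motifs. The downstream Il33 window held TTGCNNAA 85 to 78 bases before the start (9.57% of all windows). None of the 6 motifs was found in the windows of Il18, which rose with LPS, of Il1r2 or of Il1rap, the last of which was 74.4% G and C against a median of 52.4% over all windows. The NF-κB consensus was in none of the 6 printed windows and in 7.25% of all windows. Among windows not printed, it was in the downstream Il1r1 window, 232 to 223 bases before the start. TTGCNNAA was in the Il18bp window (49 to 42 bases before) and the upstream Il1r1 window (133 to 126 bases before). The LPS effects of Il18bp and Il1r1 did not pass in the additive model described below. These are matches of letters in a short window and not sites of binding, and gene-level counts do not say which of the starts of Il1rn or Il33 was used.

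LPS raised 5 of the 9 genes in both titles, namely Il1a, Il1b, Il1rn, Il18 and Il33. This was tested with edgeR's quasi-likelihood test in an additive model of titled genotype and treatment, in which 9.35% of 13989 genes rose and 5.14% fell at an adjusted p under 0.05 (Benjamini-Hochberg over all genes). All 9 passed the filter on low counts, 0 fell, and the median effect of the 9 was 2.32 log2 units against −0.05 over all genes tested. The model has 1 residual degree of freedom, so its spread is the departure of the 4 libraries from additivity. Without the titled genotype in the model the same 5 rose and 0 fell, where 16.7% of all genes rose and 15.3% fell. For 7 of the 9 genes both LPS libraries lay above both untreated libraries, an order shared by 34.6% of the 12326 genes with a mean of at least 1 CPM. It was the reverse for 38.1% of genes and for 0 of the 9. For Il1r1 and Il1rap the nearest LPS and untreated libraries differed by ratios of only 1.04 and 1.02. Both lay within counting error (0.819 to 1.33 and 0.858 to 1.22). With library totals in place of TMM scaling, which shifted the median LPS ratio of all genes by −0.61 (WT) and −0.47 (KO), Il1r1 and Il1rap left the 7, and both LPS libraries lay below both untreated ones for Il1rap.

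**Figure D1:**
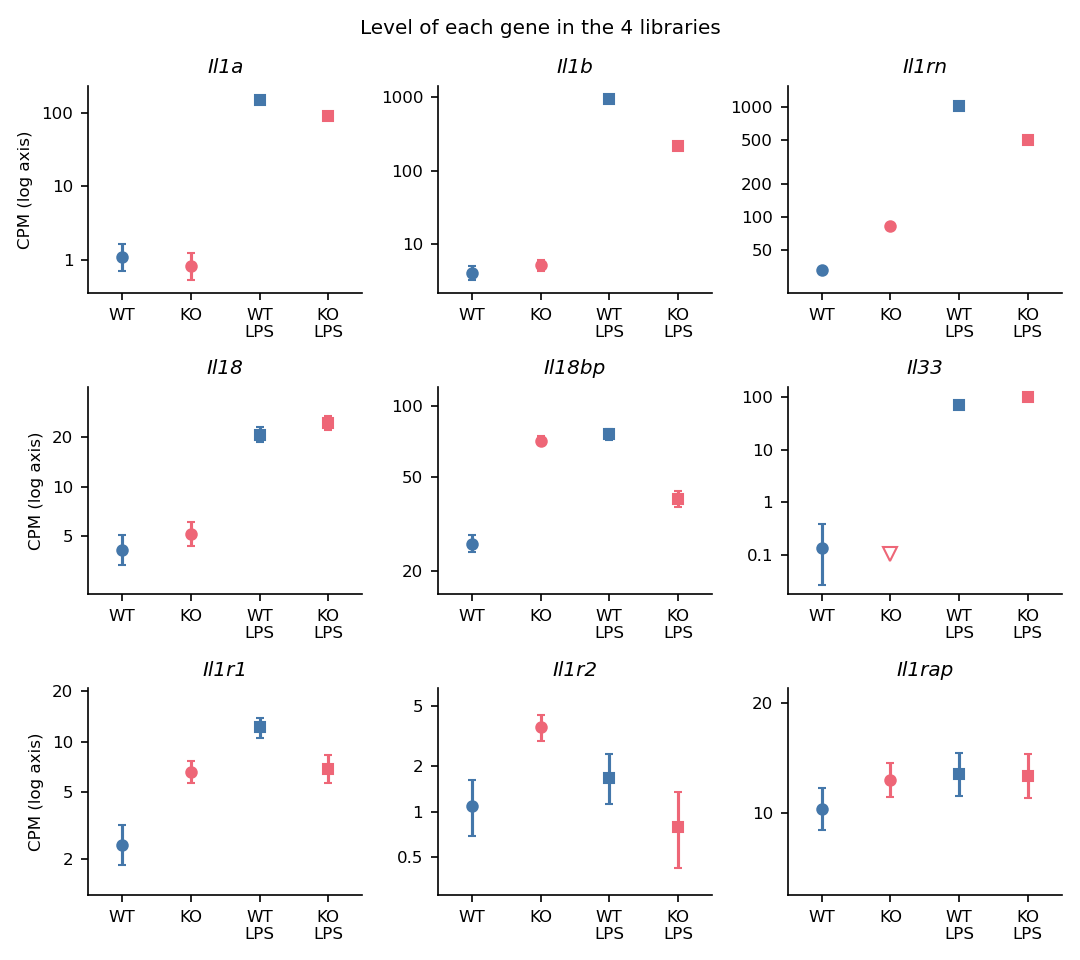
Level of each of the 9 genes (TMM-scaled CPM, log axis) in the 4 libraries by title, circles untreated and squares after LPS, with 95% Poisson counting intervals. The open triangle marks Il33 at 0 counts, drawn at the level of 3 counts (0.108 CPM). Il1a, Il1b, Il1rn, Il18 and Il33 are high in both LPS libraries, while Il18bp and Il1r2 overlap between treatments.

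Comparisons of 2 libraries have no replicate check, so a gene was called there when its log2 ratio (prior count 2) reached 1 in size, its mean level reached 1 CPM and its 95% counting interval excluded no change. By this rule 7 of the 9 genes were higher after LPS in the WT title, where 15.4% of genes were called higher and 15% lower, and 0 were lower. In the KO title 5 were higher and 1, Il1r2, was lower (14.6% and 17.8% of all genes). Between untreated libraries 4 were higher in the KO title and 0 lower (3.16% and 2.03% of all genes), and between LPS libraries 0 were higher and 3 lower (3.42% and 4.81%). The split of all calls depends on scaling: with library totals 22.2% of LPS calls in the WT title were higher against 50.7%, 22.6% against 45.0% in the KO title, and 48.4% against 60.9% between untreated libraries.

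Il1a (ENSMUSG00000027399, chr2:129299610-129309972), the gene of IL-1α, had 24, 23, 2547 and 1493 counts, or 1.09, 0.832, 148 and 91.4 CPM. Both LPS libraries were high and both untreated libraries near 1 CPM, with no overlap. The rise was 6.96 ± 0.27 log2 units (± is the SE implied by edgeR's F test, adjusted p = 0.00438). Between the LPS libraries Il1a was 1.62-fold (95% counting interval 1.52 to 1.73) lower in the KO title, under the 2-fold rule. Untreated, 23 and 24 counts left a ratio of 0.764 with an interval of 0.412 to 1.41. An opposite-strand transcript, Gm14023, overlaps Il1a and had at most 29 counts.

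Il1b (ENSMUSG00000027398, chr2:129364570-129371139), the gene of IL-1β, had 89, 142, 16163 and 3517 counts, or 4.04, 5.13, 941 and 215 CPM. It rose by 6.65 ± 0.76 log2 units (edgeR, adjusted p = 0.0103). The untreated libraries were close together, with a ratio of 1.27 (0.969 to 1.68), and the LPS libraries were not. After LPS, Il1b was lower in the KO title by 4.37-fold (4.22 to 4.54). Its LPS ratio was thus 233-fold (189 to 290.5) in the WT title and 41.9-fold (35.4 to 49.9) in the KO title. Il1bos, an antisense transcript over part of Il1b, had at most 27 counts.

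Il1rn (ENSMUSG00000026981, chr2:24336853-24351494), which encodes the receptor antagonist, had 718, 2261, 17652 and 8141 counts, or 32.6, 81.8, 1028 and 498 CPM. It had the most counts of the 9 genes in every library. The LPS rise was 3.83 ± 0.67 log2 units (edgeR, adjusted p = 0.0272), and the LPS libraries did not overlap the untreated ones. The titles crossed. Untreated, Il1rn was 2.51-fold (2.31 to 2.73) higher in the KO title, and after LPS it was 2.06-fold (2.01 to 2.12) lower there. LPS ratios were 31.6-fold (29.3 to 34.1) in the WT title and 6.09-fold (5.82 to 6.39) in the KO title.

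Il18 (chr9:50554827-50581840), the gene of IL-18, had 91, 143, 356 and 399 counts, or 4.13, 5.17, 20.7 and 24.4 CPM. Its rise of 2.32 ± 0.29 log2 units (edgeR, adjusted p = 0.0127) was close in size in both titles, at 5.02-fold (3.98 to 6.39) and 4.72-fold (3.89 to 5.76). The KO title was 1.25-fold (0.957 to 1.65) the WT title untreated and 1.18-fold (1.02 to 1.36) after LPS. On the other strand Tex12 overlaps 4507 bases of Il18 and had 2, 3, 23 and 11 counts, more after LPS, and Bco2 overlaps 355 bases and had 25 to 65 counts. Reads there could come from either gene if strand was not used.

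Il18bp (chr7:102014885-102018690), which encodes the soluble decoy of IL-18, behaved unlike its ligand. Its counts were 577, 1969, 1301 and 663, or 26.2, 71.2, 75.8 and 40.6 CPM. The highest and the second highest value came from an LPS and an untreated library, so the treatments overlapped. In the WT title Il18bp was 2.89-fold (2.62 to 3.20) higher after LPS, a call lost with library totals (log2 ratio 0.92), and in the KO title it was 1.75-fold (1.61 to 1.92) lower, which with library totals passed the rule (−1.28). The additive effect was 0.39 ± 0.59 log2 units (edgeR, adjusted p = 0.668) and −0.18 with library totals. Untreated, the KO title was 2.72-fold (2.48 to 2.99) higher, and after LPS it was 1.87-fold (1.70 to 2.05) lower. Numa1 shares 80 bases with Il18bp on the other strand and had 4818, 5045, 1439 and 1945 counts, an order unlike that of Il18bp, and reads in the shared bases could come from either gene.

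Il33 (chr19:29925114-29960718), the gene of the alarmin IL-33, went from 3 and 0 counts untreated to 1188 and 1572 after LPS, or from 0.136 and 0 to 69.2 and 96.2 CPM. It was 508-fold (174 to 2469) higher after LPS in the WT title, on 3 untreated counts, and at least 887-fold higher in the KO title, taking 3 counts as the floor there. The fitted rise was 10.30 ± 0.72 log2 units (edgeR, adjusted p = 0.00518), a value that depends on how 0 counts are handled. Between the LPS libraries Il33 was 1.39-fold (1.29 to 1.50) higher in the KO title, within the 2-fold rule. Il33 is often described in stromal cells. The 6 fibroblast markers, of which 4, 5, 5 and 6 were detected, summed to 1.27, 1.34, 1.46 and 3.18 CPM, highest in the library where Il33 was highest. Among them Pdgfra had 0, 1, 6 and 7 counts, more after LPS, and Lum 0, 0, 0 and 1. Col1a1 had 6, 10, 5 and 7 counts, Col1a2 7, 9, 2 and 16, Col3a1 2, 7, 1 and 5, and Dcn 13, 10, 11 and 16. Counts of these last genes were lower after LPS in the WT title. The part of the fibroblast markers in the Il33 result was not tested. Il1rl1, the gene of its receptor ST2, had only 16, 46, 6 and 3 counts.

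Il1r1 (chr1:40225080-40317257), the signalling receptor gene, had 54, 183, 209 and 113 counts, or 2.45, 6.62, 12.2 and 6.91 CPM. The untreated library titled KO and the LPS library titled KO were within counting error of each other (ratio 1.04, 0.819 to 1.33), and the libraries titled WT lay at either end. Il1r1 was 4.97-fold (3.67 to 6.83) higher after LPS in the WT title, and its additive effect of 1.20 ± 0.63 log2 units did not pass (edgeR, adjusted p = 0.252). Untreated it was 2.70-fold (1.98 to 3.73) higher in the KO title. After LPS it was 1.76-fold (1.39 to 2.23) lower there. With library totals the LPS difference in the KO title changed sign, to a log2 ratio of −0.40.

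Il1r2 (chr1:40074079-40125231), the decoy receptor gene, was the least abundant by mean CPM, with 24, 100, 29 and 13 counts, or 1.09, 3.62, 1.69 and 0.795 CPM. It was high in the untreated library titled KO alone. There it stood 3.32-fold (2.11 to 5.43) above the untreated WT title and 4.55-fold (2.54 to 8.83) above the LPS library of its own title. In the WT title the LPS ratio was 1.55 (0.872 to 2.78). After LPS the KO title was 2.12-fold (1.07 to 4.45) lower, a call that rests on 13 counts and is lost with DESeq2's size factors (log2 ratio −0.97). The additive effect was −0.73 ± 0.84 log2 units (edgeR, adjusted p = 0.573).

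Il1rap (chr16:26581704-26730117), the accessory chain gene, was nearly flat at 227, 342, 220 and 207 counts, or 10.3, 12.4, 12.8 and 12.7 CPM. Its LPS ratios were 1.24 (1.03 to 1.50) in the WT title and 1.02 (0.858 to 1.22) in the KO title. The additive effect was 0.21 ± 0.29 log2 units (edgeR, adjusted p = 0.642), and −0.36 with library totals (adjusted p = 0.349).

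Per length, the order of the genes changed with LPS. In the untreated library titled WT the highest FPKM was that of Il18bp (8.47), followed by Il1rn (5.76), Il18 (3.92) and Il1b (2.07), and the other 5 genes were below 1 FPKM. Il1a and Il1r2 each had 24 counts there, so their places are not resolved. Untreated KO levels were 22.7 FPKM for Il18bp, 14.2 for Il1rn, 4.83 for Il18 and 2.59 for Il1b. After LPS Il1b led in both titles, at 496 FPKM (WT) and 116 FPKM (KO). Il1rn came next (186 and 92.4 FPKM) followed by Il1a (75.4 and 47.5). This order depends on the deposited gene lengths, and by counts Il1rn stood above Il1b in every library. Il18bp (25.1) and Il33 (24.1) were neighbours in the WT title, where their counting intervals overlapped, and Il33 (34.2) stood above Il18 (24.3) and Il18bp (13.8) in the KO title. Of the summed FPKM of the 9 genes, Il1b made up 9.16 and 5.34% untreated and 59.6 and 35.0% after LPS, while Il18bp went from 37.4 and 46.6% to 3.03 and 4.16%.

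Set against the ligand or receptor transcripts of its system, each inhibitor transcript was lower after LPS in both titles. The FPKM ratio of Il1rn to Il1a plus Il1b was 2.21 (95% counting interval 1.81 to 2.69) and 4.74 (4.05 to 5.56) untreated and 0.327 (0.320 to 0.333) and 0.566 (0.546 to 0.586) after LPS. By the deposited gene lengths, antagonist transcript thus outnumbered the ligand transcripts before LPS and was outnumbered afterwards, although Il1rn itself rose. Those lengths are 5535 bases for Il1rn, 1974 for Il1a and 1907 for Il1b. Which side of 1 a ratio falls on depends on them, and the Il1rn transcripts in use are not known. At a fixed length for each gene, the fall with LPS does not depend on the length of Il1rn. The ratio of decoy to signalling receptor, Il1r2 to Il1r1, was 1.48 (0.916 to 2.40) and 1.82 (1.43 to 2.33) untreated and 0.463 (0.314 to 0.682) and 0.384 (0.216 to 0.681) after LPS. The ratio of Il18bp to Il18 was 2.16 (1.73 to 2.69) and 4.69 (3.96 to 5.56) untreated and 1.25 (1.11 to 1.40) and 0.566 (0.50003 to 0.641) after LPS. In all 3 ratios both LPS libraries lay below both untreated libraries, whichever way the titles are paired, and no LPS interval reached an untreated one. A ratio within a library does not depend on scaling between libraries. With 2 libraries a side an exact permutation test cannot go below p = 0.333, so none is given, and transcript ratios say nothing of the secreted proteins.

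**Figure D2:**
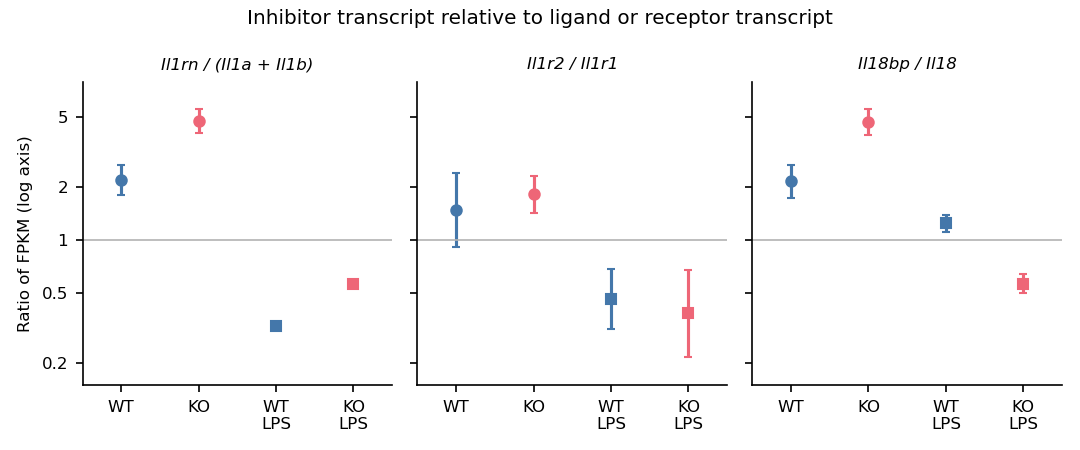
FPKM of Il1rn over Il1a plus Il1b, of Il1r2 over Il1r1 and of Il18bp over Il18 (log axis) in the 4 libraries, circles untreated and squares after LPS, with 95% counting intervals; the grey line marks a ratio of 1. Every untreated point lies above every LPS point in each panel, with Il1rn to Il1a plus Il1b at 2.21 and 4.74 untreated and 0.327 and 0.566 after LPS.

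The log2 LPS response split the 9 genes. For 5 of them, Il1b, Il1rn, Il18bp, Il1r1 and Il1r2, the signed response was lower in the KO title by the size rule (at least 1 log2 unit, with a counting interval that excludes 0), by which 10.3% of all genes were lower and 7.76% higher. Il1b and Il1rn were higher after LPS in both titles and less so in the KO title, and Il1r1 was higher in the WT title only by the rule. Il18bp (1.53 in the WT title, −0.81 in the KO title) and Il1r2 (0.59 and −2.06) had responses of opposite sign. The difference of log2 responses was −2.47 (−2.85 to −2.09) for Il1b, −2.37 (−2.50 to −2.24) for Il1rn, −2.34 (−2.53 to −2.15) for Il18bp, −2.21 (−2.75 to −1.66) for Il1r1 and −2.65 (−3.74 to −1.56) for Il1r2. These intervals cover counting error only and are no test between genotypes. The split rests on pairing libraries by title. Paired by Lyz1 level (WT with LPS KO, KO with LPS WT), Il1b went from 4.04 to 215 and from 5.13 to 941 CPM. Il1rn went from 32.6 to 498 and 81.8 to 1028 CPM, and Il18bp from 26.2 to 40.6 and 71.2 to 75.8. Il1r1 went from 2.45 to 6.91 and 6.62 to 12.2 CPM, and Il1r2 from 1.09 to 0.795 and 3.62 to 1.69. Il1b then rose more from the untreated KO title, and Il18bp and Il1r2 lost their opposite signs. That pairing was not tested. For the other 4 the difference was not called: −0.35 (−1.14 to 0.45) for Il1a, −0.08 (−0.51 to 0.34) for Il18, −0.28 (−0.64 to 0.09) for Il1rap and 1.75 (−0.39 to 3.89) for Il33, whose wide interval reflects its untreated counts of 3 and 0. With library totals the share of higher calls among all genes was 53.5% against 42.9%.

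**Figure D3:**
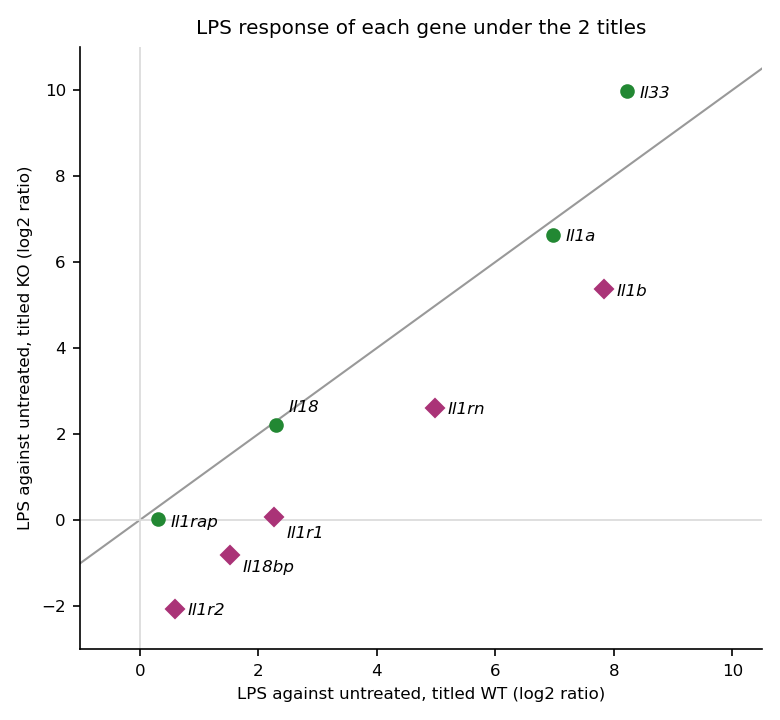
Log2 ratio of LPS to untreated (prior count 2) in the libraries titled WT (x axis) and KO (y axis) for the 9 genes, with the line of equal response. Diamonds mark the 5 genes whose difference of responses was called, with differences of −2.21 to −2.65 log2 units; Il1a, Il18 and Il1rap lie near it, and Il33 above it.

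For these 5 genes the titles crossed in direction, for Il1b with an untreated interval that included no change (0.969 to 1.68). With TMM scaling Il1b, Il1rn, Il18bp, Il1r1, Il1r2 and Il1rap were higher in the KO title untreated and lower in it after LPS, as were 37.4% of the 12326 genes. For Il1rap the log2 ratio after LPS was −0.02, and 0.02 with DESeq2's size factors or library totals. Only Il1rn and Il1r2 passed the 2-fold rule in both comparisons, 2 of 9 against 1.79% of genes. The untreated KO title and the LPS WT title, in which Lyz1 was high, also had more Cd14 (291, 688, 3366 and 1575 CPM) and Fcgr1 (227, 564, 826 and 536 CPM) than the other library of their treatment. The 8 macrophage markers summed to 21454, 15548, 20566 and 26890 CPM, the opposite pairing, carried by Lyz2 (15253, 8711, 9917 and 18238 CPM), the locus of the cre driver. The other 7 summed to 6201, 6837, 10649 and 8652 CPM, higher within each treatment in the library with high Lyz1. Of these 7, Adgre1 (3044, 2669, 3698 and 4422 CPM) went the other way in both treatments. Mertk (98.8, 99.6, 84.5 and 111 CPM) did so after LPS. The sum of 4 endothelial markers, of which 4, 4, 2 and 4 were detected, followed the Lyz1 pairing (20.4, 58.8, 56.1 and 20.6 CPM). It was carried by Kdr alone (15.1, 56.3, 53.0 and 16.2 CPM). Cdh5 (4.54, 2.39, 3.09 and 3.61 CPM), Tek (7, 3, 0 and 4 counts) and Emcn (8, 1, 0 and 9 counts) went the other way. S100a8, a neutrophil marker, was 1.95, 1.95, 9.72 and 2.75 CPM. Mpo, another, went the other way with 27, 46, 9 and 2 counts. The rest of the 8 neutrophil markers had at most 6 counts in any library. The 5 dendritic cell markers, of which 4, 5, 4 and 4 were detected, summed to 1.77, 2.28, 13.2 and 9.36 CPM, higher in both LPS libraries and highest in the WT title, as Il1b was. That sum was carried by Xcr1 alone (0.454, 0.904, 12.9 and 8.81 CPM). Zbtb46 (19, 16, 1 and 4 counts) and Clec9a (7, 11, 1 and 2 counts) were lower in both LPS libraries. Flt3 had 3, 9, 3 and 3 counts and Siglech 0, 2, 0 and 0. The part of these differences in the results was not tested, and with 1 library per group genotype, library and the Lyz1 pairing cannot be told apart.

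The KO against WT effect common to both treatments was called for 0 of the 9 genes and 0% of 13989 genes in edgeR's additive model, with 39 genes at an unadjusted p under 0.05 and 0 calls by DESeq2. So few of 13989 genes at that threshold mark a test with little power. Its spread is the departure from additivity, the same contrast as the Lyz1 pairing. The 0 calls therefore cannot show that a genotype effect is absent. Among the members Il1a had the smallest unadjusted p (0.04998, adjusted p = 1), with an effect of −0.59 ± 0.23 log2 units, lower in the KO title in 2 of 2 treatments. The authors' deposited table listed p-values for single libraries. By adjusted p in the authors' deposited table, Il1b after LPS was the 1 member that differed between titles (log2 fold −2.11, adjusted p = 0.000250), where 0.961% of genes listed were lower and 0.634% higher. In the authors' deposited table, 7 members were higher and 0 lower with LPS in the WT title, where 9.94% of genes were higher and 8.3% lower. In the KO title the authors' deposited table had 5 higher and 1 lower, against 9.05% and 10.2% of genes.

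Beyond these genes, 55 others of the pathway were in the table, in 5 lists. Of the 5 other ligand genes, Il1f9 (IL-36γ) alone reached 1 CPM, and it rose with LPS (1.13, 0.687, 5.07 and 5.57 CPM, 2.61 log2 units, edgeR, adjusted p = 0.0327), 1 of 1 tested. Among the other receptor genes 0 of 4 tested passed. In the same model 9.35% of 13989 genes rose and 5.14% fell. Il1rl2, the IL-36 receptor gene, was 3.96-fold (2.67 to 6.02) lower in the KO title after LPS. Il18rap, an IL-18 receptor chain gene, was 2.10-fold (1.67 to 2.66) higher there, at 2.86, 3.04, 6.52 and 13.7 CPM. Sigirr, the gene of an inhibitory receptor of the family, was 2.64-fold (1.39 to 5.34) lower with LPS in the WT title and 2.62-fold (1.45 to 5.06) in the KO title.

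Of 15 genes of MyD88, IRAK and TRAF6 signalling, 4 rose with LPS and 2 fell in the additive model, where 9.35% of all genes rose and 5.14% fell, with a median of 0.25 log2 units against −0.05 over all genes. The risers were Peli1, an E3 ligase gene (4.09 log2 units, edgeR, adjusted p = 0.00520), the adaptor gene Myd88 (2.09, adjusted p = 0.00957), Irak2 (1.55, adjusted p = 0.0284) and Irak3, whose product restrains the pathway (1.17, adjusted p = 0.0298). Tab1, which encodes a TAK1 partner, fell by 1.94 log2 units and Peli2 fell by 1.43. Neither Irak1, Irak4 nor Traf6 passed.

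Of 18 processing and release genes tested, 4 rose and 2 fell, against the same 9.35% and 5.14% of all genes (median 0.23 log2 units, −0.05 over all genes). The inflammasome sensor gene Nlrp3 rose by 3.52 log2 units (50.3, 42.4, 678 and 393 CPM), Casp4, encoding the sensor caspase of cytosolic LPS, by 3.53, the DNA sensor gene Aim2 by 1.84, and Casp1, which encodes the protease that cleaves pro-IL-1β, by 1.67, with edgeR adjusted p from 0.00495 to 0.0181. Nlrp1b fell by 2.62 log2 units and P2rx7, the gene of an ATP receptor upstream of NLRP3, fell by 1.69. Mefv, which encodes pyrin, had 21.2, 57.4, 406 and 140 CPM and crossed the titles as Il1rn did, 2.71-fold (2.44 to 3.01) higher in the KO title untreated and 2.90-fold (2.77 to 3.04) lower after LPS. Its additive effect did not pass (2.80 log2 units, edgeR, adjusted p = 0.0803). Gsdmd, the gene of the pore protein gasdermin D, was at 95.9, 110, 142 and 117 CPM. Of 7 negative regulators tested, 4 rose and 0 fell, again beside 9.35% and 5.14% of all genes (median 1.60 log2 units, −0.05 over all genes): Tnfaip3, the A20 gene (5.71), Otud1 (3.22), the RNase gene Zc3h12a (2.08) and the mRNA decay factor gene Zfp36 (1.60).

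**Figure D4:**
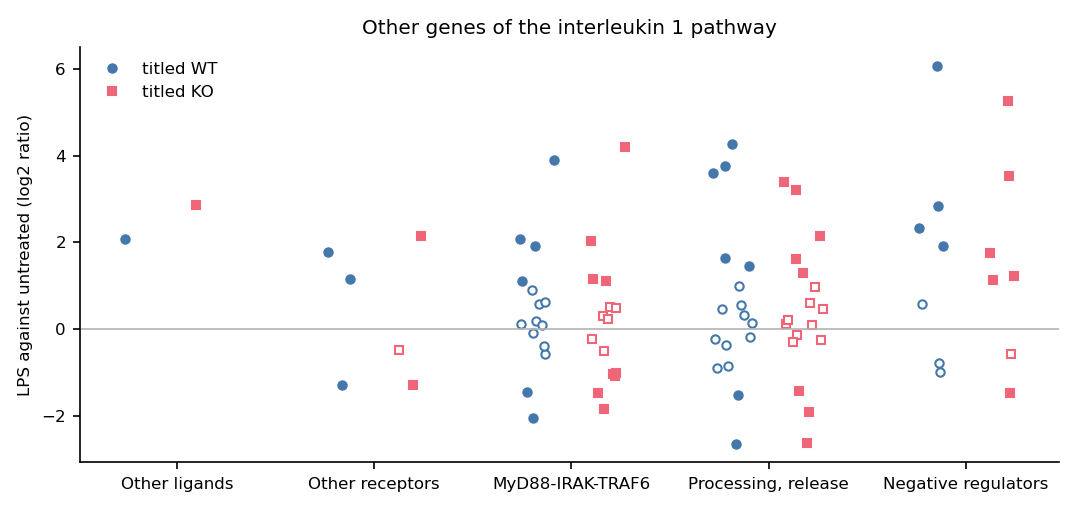
Log2 ratio of LPS to untreated (prior count 2) for pathway genes with a mean of at least 1 CPM, by list, circles in the title WT and squares in the title KO; filled symbols pass the size rule. Tnfaip3 is highest in both titles, at 6.07 (WT) and 5.27 (KO), and Nlrp1b is near −2.64 in both.

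Likeness of pattern was measured as the root mean square difference of log2 CPM, centred over the 4 libraries, among 9385 other protein-coding genes of at least 5 CPM. Nearest to Il1a were Rnd1 (0.12 log2 units), Il19 (0.20) and Lipg (0.21), and to Il1b the endothelin gene Edn1 (0.35), Nos2 (0.40) and Itgb8 (0.41). Il1rn was closest to the nuclear receptor gene Nr4a3 (0.07), Nupr1 (0.10) and Cdc42ep2 (0.12). Il18 was closest to Luzp1 (0.06), Rnf19b (0.06) and Rnf213 (0.07). Il33 was nearest to the interferon-induced genes Gbp5 (0.35) and Cxcl10 (0.42) and to Il6 (0.54). Among the 9 genes themselves the closest pair was Il18bp and Il1r1 (0.40), and Il1a and Il1b were 0.57 apart. The prior count shrinks the ratios of genes with few untreated counts, so distances among such genes depend on it. Untreated WT and KO levels were 0 and 0 CPM for Il19, 0.136 and 0.108 for Lipg, and 0.272 and 0.253 for Edn1. They were 0.181 and 0.145 CPM for Itgb8, 0.136 and 0.145 for Il6, and 0.136 and 0 for Il33 itself. With 4 libraries many genes share any pattern, and these distances are descriptions.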

How the data were processed

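RNA was sequenced from 4 libraries of bone marrow-derived macrophages, 1 for each title. The submitters' processing notes name HISAT2 2.0.5 and mm10. Raw read counts per gene and the authors' FPKM for each library were deposited, per the file headers, with a log2 fold and a p-value from the authors for each of 4 comparisons. The sources used here do not give how reads were counted, whether strand was used or which test the authors ran. Left out were 8 other columns of per-sample values. The deposited table also gave each gene's length in bases. Of the identifiers, 54409 were in GENCODE M21, 98.3% at the same position.

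Counts were scaled by TMM, with factors of 1.25, 1.16, 0.820 and 0.840 on the totals of the untreated WT and KO and the LPS WT and KO titles. The additive model used edgeR 4.0.16 (quasi-likelihood test, filterByExpr, threshold 0.05) in R 4.3.3, with DESeq2 1.42.0 as an alternative. Printed folds are ratios of scaled counts without a prior, with exact binomial 95% intervals. Poisson intervals (delta method) served for differences of responses and FPKM ratios. A gene at 0 counts was taken at 3 counts, the 95% upper bound, for a lower bound of a fold. Intervals cover counting error only, since no molecular identifiers are described, and p-values measure only the spread between these libraries. Steps were tested on simulated data. Alternatives were other scalings, no filter on low counts, a prior count of 0.5, FPKM with a pseudocount of 1 and a model without genotype.

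The 9 genes, pathway lists and markers were chosen with earlier results of these data known. All 9 were named, with up to 3 called genes a direction in each list, and likeness was given for 5 of them. Irak3, Casp1, Zfp36, Mefv, Gsdmd, Il1f6, Il1rl1, Il18r1, Irak1, Irak4 and Traf6, and the marker genes given singly, were chosen after their values were seen. Starts and upstream sequences are RefSeq's, found for 9 of 9 genes.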

Additional observations from a re-analysis of the deposited data

Results flagged for a closer look

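The difference of LPS responses between titles stood out for 5 genes. For each it was at least 1 log2 unit in size, with a counting interval that excluded 0. By this rule 10.3% of all genes were lower and 7.76% higher. The log2 response in the KO title minus that in the WT title was −2.47 for Il1b, −2.37 for Il1rn, −2.34 for Il18bp, −2.21 for Il1r1 and −2.65 for Il1r2. Il18bp was higher with LPS in the WT title (log2 ratio 1.53) and lower in the KO title (−0.81), and Il1r2 went from 0.59 to −2.06. With 1 library per group the difference was not tested beyond counting error. It also rests on pairing the libraries by title, and pairing by Lyz1 level changes it.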

How the results depend on the processing

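No paired analysis was possible because each group held 1 library with no further replicate number to pair; the additive model compares LPS within titles. Leaving out each library in turn, added after seeing the data, was possible in the model without genotype, with 1 residual degree of freedom and the lone library assumed to vary like the other treatment. It gave 2573 to 3029 LPS effects against 4485, and the 5 rises held each time. Without the untreated KO title (2632 effects) Il1r1 also rose, by 1.97 log2 units (edgeR, adjusted p = 0.0341). Calls fell by over 1.5 times without the untreated WT (2573) or the LPS KO title (2727) too. Of the values of single genes under all alternatives, 333 kept their side of the threshold, 7 lost a call, 2 gained one and no called value reversed. Some uncalled values changed sign: with library totals, LPS effects of Il18bp, Il1r1 and Il1rap; with library totals or FPKM, the difference of responses of Il18 (−0.08 to 0.06 and 0.01); with those or DESeq2's size factors, Il1rap between LPS titles; with DESeq2, the genotype effect of Il33 (0.21 to −1.36); and, with 1 library left out, the LPS effects of Il18bp (−0.25 and −0.21) and Il1r2 (0.21). In FPKM with a pseudocount of 1, which shrinks low genes, calls were lost for Il1r2 after LPS in the KO title (−0.98), between untreated titles (0.86) and between LPS titles (−0.40), and for Il1r1 between untreated titles (0.54). Il1r2 between LPS titles was also lost with library totals (−0.95). The 5 LPS rises of the additive model held under DESeq2, every edgeR scaling tried, no expression filter and the model without genotype. Counts over all genes moved more. LPS effects in the additive model numbered 3797 without the expression filter, 4059 with library totals (916 rising and 3143 falling, against 1308 and 719) and 4485 without genotype, against 2027, and genotype effects 2 against 0 without the filter. FPKM gave 2269 calls against 3747 for LPS in the WT title, 2279 against 3992 in the KO title, 229 against 639 between untreated titles, 370 against 1014 between LPS titles and 1167 against 2229 for the difference of responses. Without a minimum CPM the untreated titles gave 1157 calls. Except where the alternative itself sets the number of genes or the size of ratios, the cause was not tested. The order of both LPS libraries against both untreated ones held for 8956 and 9915 genes under the 2 other scalings, chosen after seeing the data, against 8964. Il33 untreated, Il1r2 and Il1a untreated rest on at most 100 counts, so small differences there were not detectable at this depth.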

Other observations

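Transcripts opposite or beside the ligand genes were low but moved with LPS in places. Il1bos, the antisense transcript at Il1b, had 1, 3, 27 and 11 counts, in the same order of LPS libraries as Il1b (16163 and 3517). Gm14023, opposite Il1a, had 12, 11, 29 and 17 counts. If counting ignored strand, such reads could come from either gene. Il1f6, the gene of IL-36α, was under a mean of 1 CPM, with 1, 4, 39 and 7 counts, and was 5.30-fold (2.34 to 14.0) lower in the KO title after LPS. Il1f5 and Il1f8 had 0 counts in all 4 libraries, which allows up to 0.184 CPM in the shallowest by effective size. Il18r1, a chain of the IL-18 receptor, had 6, 6, 1 and 1 counts, while Il18rap, the other chain, was higher in both LPS libraries.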
